A study of Homo sapiens and Mus musculus with 12 samples.

Results

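Urokinase (*PLAU*), its receptor on the cell surface (*PLAUR*), tissue plasminogen activator (*PLAT*) and the serpins *SERPINE2* and *SERPINB2*, which inhibit both activators, were followed at the RNA level. These 5 human genes and the 5 mouse genes that carry the same symbols were chosen by name, making 10 genes of the 111406 in the count files of both species. RNA-seq was done on MDA-MB-231, a human triple-negative breast cancer (TNBC) cell line, and on 4T1, a mouse mammary carcinoma line, both given as wild type and grown in DMEM with fetal bovine serum. Cells of each line received either ponatinib at 1 μM, an inhibitor of several tyrosine kinases, or the solvent DMSO for 24 h. There were 3 libraries in each of the 4 groups, 12 in all, and each library was made from whole cultured cells of 1 line. The comparison asked how the transcriptome of each line differed after exposure to the drug.

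Plasminogen activators cut the inactive precursor plasminogen to plasmin, a broad protease that breaks down fibrin and, directly or through other proteases, extracellular matrix. Urokinase does this mainly at the cell surface, where a lipid-anchored receptor holds it close to plasminogen bound by other proteins. Serpins act as suicide inhibitors: the activator attacks a bait loop, becomes trapped in a complex with the serpin, and the complex is cleared by endocytic receptors of the LDL receptor family. In carcinomas the system is known for its part in invasion and in the remodelling of stroma, and activators and inhibitors are often made by the same cells.

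Total counts were 15642659 to 16294543 per library in MDA-MB-231 with DMSO and 15012884 to 17301760 with ponatinib, and 18586137 to 18951493 and 17800675 to 18855423 in 4T1. Values are given as CPM, each count relative to the TMM-scaled total of its library, and each group as mean ± SD of 3 libraries. Fold changes and adjusted p values are from the quasi-likelihood test of edgeR, with p values adjusted by Benjamini-Hochberg over all genes tested in the line, and a gene is said to have fallen or risen only where the adjusted p was under 0.05. The labels do not say whether replicates came from separate cultures, so the p values measure the spread between these libraries, which may be technical. In whole cultures, fewer cells that express a gene and less RNA per cell cannot be told apart. Of 7 epithelial markers, 7 reached 1 CPM in 4T1 and 6 in MDA-MB-231, where E-cadherin (*CDH1*), a defining marker, had 0 counts with DMSO and 1 count with ponatinib. The summed level of these markers in MDA-MB-231 was 2073 to 2523 CPM with DMSO and 3037 to 3845 CPM with ponatinib, and that of 4 mesenchymal markers 1342 to 1528 and 947 to 1124 CPM. In 4T1 the epithelial sum overlapped between the groups, at 7894 to 9092 and 8030 to 8843 CPM, while the mesenchymal sum was 6429 to 7370 CPM with DMSO and 4401 to 4823 CPM with ponatinib. These sums hide genes that went the other way. Among the epithelial markers in 4T1, *Krt18*, *Krt7* and *Cldn4* fell (log2 fold changes -0.54, -0.87 and -1.41), *Krt8* rose (0.24), and the others did not pass. In MDA-MB-231 *VIM* had a log2 fold change of -0.66 and *FN1* rose by 0.75 (adjusted p = 9.05e-05), while in 4T1 *Fn1* had one of -1.82 and *Vim* one of 0.15 that did not pass (adjusted p = 0.176). The 5 leukocyte markers summed to 224 to 250 and 139 to 157 CPM in 4T1, nearly all of it *Cd14*, while *Cd3e* and *Itgam* were at 0 in all libraries and *Ptprc* had at most 4 counts in any library. The 4 fibroblast markers summed to 25.7 to 31.3 CPM with DMSO and 72.7 to 77.0 CPM with ponatinib in MDA-MB-231, nearly all of it *COL1A1*, and to 5.95 to 6.89 and 9.51 to 10.2 CPM in 4T1, where *Col1a1* rose and *Pdgfra* fell (log2 fold changes 1.26 and -0.88). The genes of decorin and lumican, defining fibroblast markers, had at most 1 count in any library. The summed level of 4 endothelial markers did not overlap between the groups in 4T1, at 3.22 CPM or more with DMSO, mostly *Kdr*, which was at 3.42 ± 1.08 and 0.817 ± 0.367 CPM, and overlapped in MDA-MB-231. What part these shifts had in the results below was not tested.

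With ponatinib, the receptor gene fell in both lines, by 5.48-fold in MDA-MB-231 and by 1.77-fold in 4T1. *PLAT* fell by 3.54-fold in the human line, and *Plat* by much less in the mouse line. The urokinase gene itself had log2 fold changes of -0.13 in MDA-MB-231, which did not pass, and -0.31 in 4T1, which did. The inhibitors split by line, since *SERPINB2* fell in MDA-MB-231 from a low level and *Serpine2* fell in 4T1 from a low level, while *SERPINE2* in MDA-MB-231 did not pass the test. In MDA-MB-231, 3 of the 5 members fell and 0 rose, where 26.8% of the 14610 genes tested were called lower and 27.2% higher. In 4T1, 4 of the 5 members fell and 0 rose, against 29.4% of 13286 genes tested called lower and 29.5% called higher, and *Serpinb2* had too few counts to be tested. *SERPINB2* and *Serpine2* passed the filter on low counts only through their DMSO libraries, and so could only be lower with ponatinib.

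**Figure D1:**
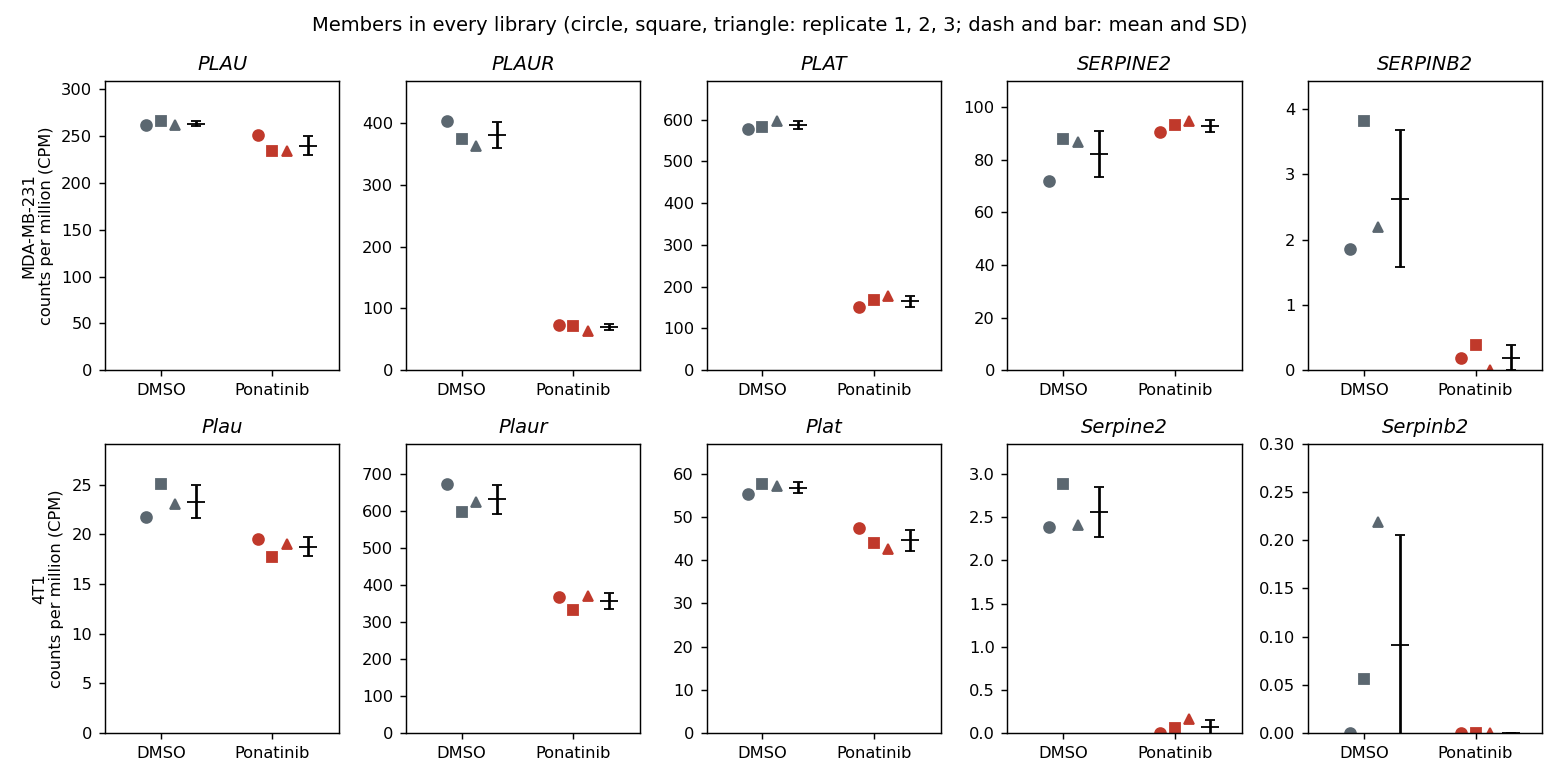
Level of each gene in every library, in CPM (y axis, starting at 0, scaled per panel), for MDA-MB-231 (upper row) and 4T1 (lower row), with DMSO in grey and ponatinib in red. Circles, squares and triangles are replicates 1, 2 and 3, and the black dash and bar give the mean and SD of 3 libraries. The groups stand far apart for *PLAUR* and *PLAT* in MDA-MB-231 and for *Plaur* and *Serpine2* in 4T1, and lie close together for *PLAU*.

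*PLAU* (ENSG00000122861, hg38 chr10:73909177-73917496, plus strand) encodes urokinase, the activator that works at the cell surface. It was at 262, 266 and 261 CPM in the 3 MDA-MB-231 libraries with DMSO and at 251, 235 and 234 CPM with ponatinib. Every ponatinib library lay below every DMSO library, as it did for 29.8% of all genes tested. The means were 263 ± 2.67 and 240.0 ± 9.74 CPM, and the log2 fold change of -0.13 (SE 0.07) did not pass edgeR's quasi-likelihood test (adjusted p = 0.128). With the replicate number as a block the same log2 fold change of -0.13 passed, at an adjusted p of 0.00498. The gene shares 915 bases of exon with *C10orf55*, a long non-coding RNA on the opposite strand, and whether strand was used in counting is not given in the sources used here.

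Mouse *Plau* (ENSMUSG00000021822, GRCm39 chr14:20886722-20893453, plus strand) was at 21.8, 25.1 and 23.0 CPM with DMSO and at 19.5, 17.7 and 19.0 CPM with ponatinib. The groups did not overlap, and the 3 ponatinib libraries lay close together below the DMSO libraries; 30.8% of the genes tested in 4T1 were lower without overlap and 32.6% higher. The gene fell, with a log2 fold change of -0.31 (SE 0.11, adjusted p = 0.0194, edgeR's quasi-likelihood test) and means of 23.3 ± 1.69 and 18.8 ± 0.934 CPM. This call was lost without DMSO replicate 2 (log2 fold change -0.25, adjusted p = 0.0843), without ponatinib replicate 2 (-0.27, 0.0901) and with scaling to total counts (-0.20, 0.128). *Plau* shares 388 bases of exon with *Gm63115*, an antisense long non-coding RNA.

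*PLAT* (ENSG00000104368, hg38 chr8:42174718-42207709, minus strand) encodes tissue plasminogen activator, best known for dissolving fibrin clots. It was at 579, 583 and 597 CPM in MDA-MB-231 with DMSO and at 151, 168 and 178 CPM with ponatinib. The groups stood far apart, with little spread within either. *PLAT* fell from 586 ± 9.63 to 165 ± 13.3 CPM, a log2 fold change of -1.82 (SE 0.08, adjusted p = 1.54e-08, edgeR's quasi-likelihood test), and 132 of the 14610 genes tested had a lower log2 fold change.

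In 4T1, *Plat* (ENSMUSG00000031538, GRCm39 chr8:23247709-23272871, plus strand) was at 55.4, 57.7 and 57.3 CPM with DMSO and at 47.4, 43.9 and 42.6 CPM with ponatinib. All ponatinib libraries were below all DMSO libraries by a margin wider than the spread within either group. The fall was small, with a log2 fold change of -0.35 (SE 0.08, adjusted p = 0.00172, edgeR's quasi-likelihood test) and means of 56.8 ± 1.24 and 44.6 ± 2.49 CPM.

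*PLAUR* (ENSG00000011422, hg38 chr19:43646095-43670547, minus strand) encodes the urokinase receptor, which is tied to the membrane by a glycolipid anchor and signals through partners such as integrins. It was at 403, 374 and 363 CPM in MDA-MB-231 with DMSO and at 72.6, 71.6 and 63.9 CPM with ponatinib. The ponatinib libraries formed a narrow range far below the DMSO libraries. *PLAUR* fell from 380.0 ± 20.7 to 69.4 ± 4.77 CPM, a log2 fold change of -2.45 (SE 0.08, adjusted p = 2.73e-09, edgeR's quasi-likelihood test), and 68 of the 14610 genes tested had a lower log2 fold change.

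*Plaur* (ENSMUSG00000046223, GRCm39 chr7:24161875-24175394, plus strand) was at 675, 598 and 626 CPM in 4T1 with DMSO and at 368, 333 and 370 CPM with ponatinib. The groups did not overlap. *Plaur* fell from 633 ± 39.1 to 357 ± 21.0 CPM, a log2 fold change of -0.83 (SE 0.08, adjusted p = 6.27e-07, edgeR's quasi-likelihood test), and 970 of the 13286 genes tested had a lower log2 fold change.

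*SERPINE2* (ENSG00000135919, hg38 chr2:223975045-224039318, minus strand) encodes protease nexin-1, a secreted serpin that traps urokinase, tissue plasminogen activator and thrombin. It was at 72.2, 88.0 and 86.8 CPM in MDA-MB-231 with DMSO and at 90.6, 93.2 and 94.8 CPM with ponatinib. All ponatinib libraries were above all DMSO libraries, as for 30.6% of the genes tested, but DMSO replicate 1 stood well below the other 2 DMSO libraries. With means of 82.3 ± 8.81 and 92.9 ± 2.14 CPM, the log2 fold change of 0.17 (SE 0.09) did not pass edgeR's quasi-likelihood test (adjusted p = 0.118). Without DMSO replicate 1 it was 0.075 (adjusted p = 0.425). It passed with the replicate number as a block (log2 fold change 0.18, adjusted p = 0.00560) and with scaling to total counts (0.27, 0.0484).

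*Serpine2* in 4T1 (ENSMUSG00000026249, GRCm39 chr1:79763323-79839144, minus strand) had 42, 52 and 44 counts with DMSO and 0, 1 and 3 counts with ponatinib. In CPM the DMSO libraries were at 2.38, 2.89 and 2.41 and the ponatinib libraries at 0, 0.0517 and 0.163. Each DMSO library held at least 42 counts, and the 3 ponatinib libraries together held 4. The summed counts of 138 and 4 gave a level 36.7-fold lower with ponatinib, with a 95% exact interval of 14.0 to 137 (Clopper-Pearson) that covers counting error only. *Serpine2* fell, at an adjusted p of 1.03e-06 in edgeR's quasi-likelihood test (fitted log2 fold change -5.07, SE 0.51). Without ponatinib replicate 3, which held 3 of the 4 counts, the fitted value was -6.30, and -4.51 without ponatinib replicate 1, the library at 0.

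*SERPINB2* (ENSG00000197632, hg38 chr18:63871692-63903888, plus strand) encodes plasminogen activator inhibitor 2, which stays largely inside the cell. It had 28, 59 and 35 counts in MDA-MB-231 with DMSO and 3, 6 and 0 counts with ponatinib. This made 1.86, 3.82 and 2.20 CPM against 0.189, 0.382 and 0 CPM. The DMSO libraries spread widely, with replicate 2 the highest, yet the lowest of them held more counts than all ponatinib libraries together. The sums of 122 and 9 counts gave a level 14.5-fold lower with ponatinib (95% Clopper-Pearson interval 7.42 to 32.6, counting error only), and *SERPINB2* fell at an adjusted p of 0.000199 (edgeR's quasi-likelihood test, fitted log2 fold change -3.80, SE 0.59). An unnamed protein-coding gene on the same strand, ENSG00000289724, shares 547 bases of exon with it, so reads of the 2 genes may not be fully separated. The fitted value was -4.78 without ponatinib replicate 2 and -3.17 without ponatinib replicate 3.

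*Serpinb2* (ENSMUSG00000062345, GRCm39 chr1:107428593-107463208, plus strand) had 0, 1 and 4 counts in 4T1 with DMSO and 0 counts in each ponatinib library. At this depth a count of 0 over the 3 ponatinib libraries allows a level of up to 0.0523 CPM, and no difference was detectable. It also shares exon bases with *Serpinb10* on the same strand and with the antisense RNA *Gm70772*.

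**Figure D2:**
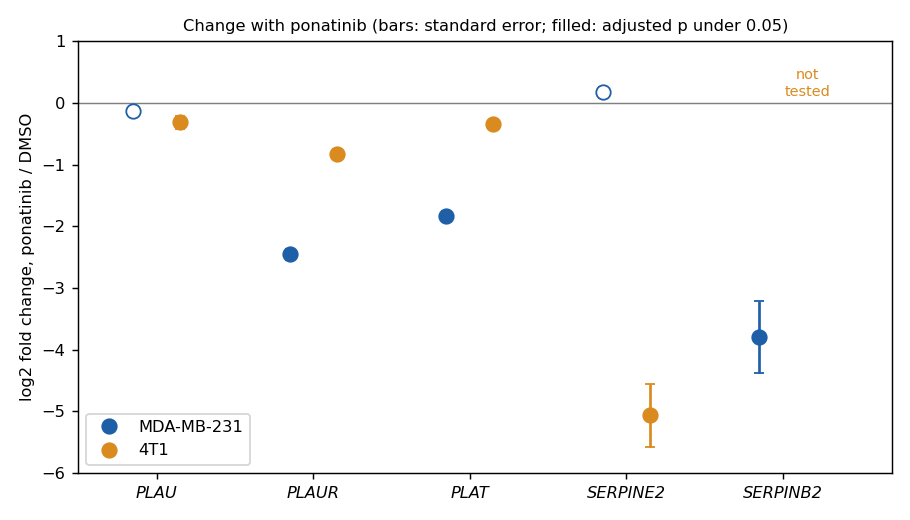
Log2 fold change of each gene with ponatinib against DMSO (y axis) in MDA-MB-231 (blue) and 4T1 (orange), with the standard error from edgeR as bars, which are hidden by the point where they are small. Filled points have an adjusted p under 0.05. *PLAUR* (-2.45) and *PLAT* (-1.82) lie lower in MDA-MB-231 than in 4T1 (-0.83 and -0.35), *SERPINE2* lies near 0 in MDA-MB-231 and at -5.07 in 4T1, and *Serpinb2* was not tested.

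The size of the response was compared between the lines as the interaction of line and treatment, fitted over 12488 genes with 1 symbol shared by human and mouse, of which 41.9% differed at an adjusted p under 0.05 in edgeR's quasi-likelihood test. Of the 4 members that could be tested in each line, 3 differed, and *SERPINB2* was left out because *Serpinb2* had too few counts. The fall of the receptor gene was smaller in 4T1 by 1.56 on the log2 scale (SE 0.12, adjusted p = 4.06e-09). That of *PLAT* was smaller in 4T1 by 1.40 (SE 0.11, adjusted p = 6.85e-09). For *SERPINE2* the difference, 4T1 minus MDA-MB-231, was -5.30 (SE 0.42, adjusted p = 7.76e-09), and the value for 4T1 rests on the low counts given above. For *PLAU* it was -0.25 (SE 0.11), which did not pass (adjusted p = 0.0763) but did with the replicate number as a block (adjusted p = 0.0310). Of the 9838 same-symbol genes tested in each line, 15.0% fell in both lines. Among the 4 members tested in both, *PLAUR* and *PLAT* did so.

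To compare the members with each other, CPM was divided by the length in kb of all annotated exons of the gene (RPKM), within each line. In MDA-MB-231 with DMSO the order of these levels was *PLAU* (89.2 ± 0.907 RPKM), *PLAUR* (85.3 ± 4.63), *PLAT* (75.5 ± 1.24), *SERPINE2* (9.19 ± 0.983) and *SERPINB2* (0.958 ± 0.382). *PLAU* and *PLAUR* overlapped between libraries, and the other neighbours did not. With ponatinib the level of *PLAU* was 81.4 ± 3.30 RPKM, well above *PLAT* (21.3 ± 1.71), *PLAUR* (15.6 ± 1.07), *SERPINE2* (10.4 ± 0.239) and *SERPINB2* (0.0695 ± 0.0697), and no neighbours overlapped. The order with DMSO depended on the length used: per kb of the longest annotated transcript, *PLAUR* came first (236 RPKM), then *PLAT* (169) and *PLAU* (99.0). By that length *PLAU* was at 90.3 RPKM with ponatinib, *PLAT* at 47.8 and *PLAUR* at 43.1, the same order as by all exons. How close the ligand and its receptor stood with DMSO thus depended on the length, while the receptor was above the ligand with DMSO and below it with ponatinib only by the longest transcript.

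In 4T1 the receptor led in both groups. With DMSO *Plaur* was at 158 ± 9.79 RPKM, followed by *Plau* (9.08 ± 0.659), *Plat* (8.15 ± 0.177), *Serpine2* (0.208 ± 0.0233) and *Serpinb2* (0.0322 ± 0.0400). With ponatinib the levels were 89.3 ± 5.25 RPKM for *Plaur*, 7.31 ± 0.364 for *Plau*, 6.40 ± 0.357 for *Plat*, 0.00580 ± 0.00675 for *Serpine2* and 0 for *Serpinb2*. Only the last 2 with ponatinib overlapped. *Plat* stood above *Plau* in both groups when the longest transcript was used. The mouse line thus held much receptor RNA beside little RNA of either activator, and little of these serpins.

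**Figure D3:**
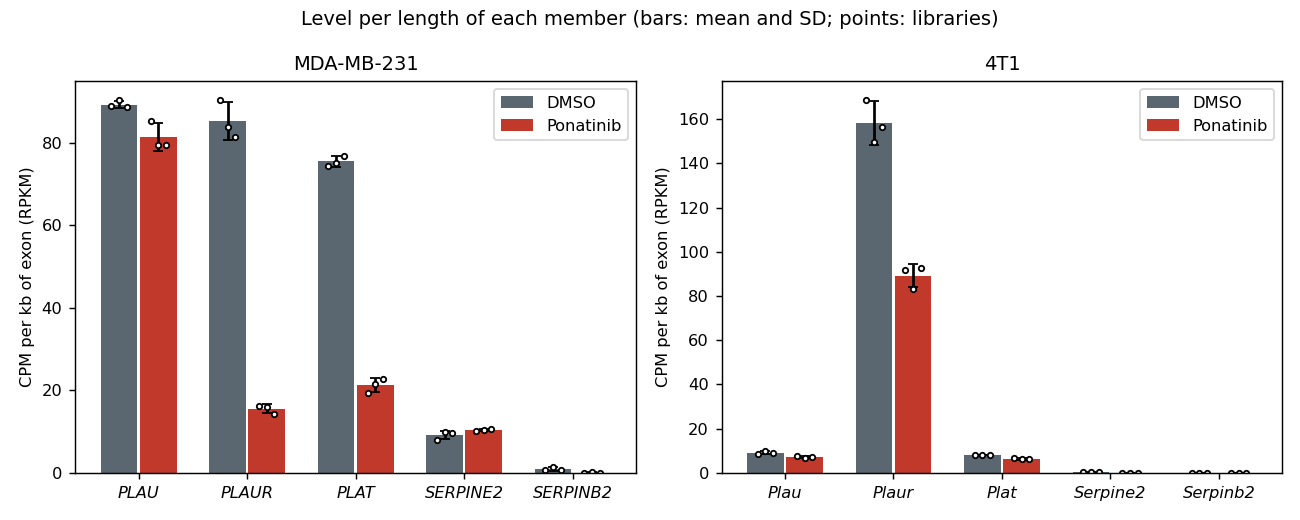
Level per length of each gene, in CPM per kb of exon (RPKM, y axis starting at 0), with MDA-MB-231 in the left panel and 4T1 in the right one, DMSO in grey and ponatinib in red. Bars and whiskers are the mean and SD of 3 libraries and open points the libraries. *PLAU*, *PLAUR* and *PLAT* are alike in height by this length with DMSO in MDA-MB-231 and only *PLAU* stays high with ponatinib, while *Plaur* stands far above the others in 4T1.

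The promoters of the members were searched for 2 short motifs, since the factors that bind them are known regulators of urokinase and its receptor. These were TGANTCA, where N is any base, which AP-1 dimers of FOS and JUN proteins bind, and AGGAAG, which holds the core that ETS factors recognise. Both strands were searched over the 250 bases before the transcription start, and no match of one motif overlapped a match of the other. Human starts and sequence came from the RefSeq promoter table of GRCh38.p14, and mouse windows were read from GRCm39 at the canonical start of GENCODE vM39. TGANTCA was present in 6.57% of 35116 human windows and in 6.17% of 21770 mouse windows, and AGGAAG in 28.7% and 28.9%. A match is a description of the letters, not a bound site. Sequence farther from the start was not searched, so absence from a window says nothing about more distant sites. The window of human *PLAT* was not analysed here.

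TGANTCA was found before the start of the receptor gene and of *SERPINB2* in both species, and not in the windows of *PLAU*, *Plau*, *Plat*, *SERPINE2* or *Serpine2*. In *PLAUR* the match lay 186 to 180 bases before the start and in *Plaur* 36 to 30, so the distances differ. Of the 20 flanking bases, 10 on each side, 5 were identical. The human window also holds ctgactcgctcttt, which lacks the motif and differs in 1 base from cTGACTCActcttt at the match in *Plaur*. The matches in *PLAUR* and *Plaur* are thus not shown to be the same site. In *SERPINB2* the match lay 102 to 96 and in *Serpinb2* 94 to 88 bases before the start, and 16 of the 20 flanking bases were identical. AGGAAG was found in *PLAUR* (15 to 10 bases before the start, on the opposite strand), *Plaur* (97 to 92), *SERPINB2* (119 to 114, opposite strand), *Plat* (76 to 71, opposite strand) and before the second start of *PLAU* (221 to 216). It was absent from the windows of *Plau*, *SERPINE2*, *Serpine2* and *Serpinb2*.

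The matches to TGANTCA in the receptor gene of each species and in *Serpinb2* are shown 5′ to 3′ on the strand of the gene, with 10 bases on each side and the motif in capitals, so that the middle base and the flanks can be compared. They are from GRCh38 chr19:43670339-43670365 (minus strand), GRCm39 chr7:24161829-24161855 (plus strand) and GRCm39 chr1:107439049-107439075 (plus strand). The first of them lies inside the first exon of a longer annotated transcript of *PLAUR*.
PLAUR: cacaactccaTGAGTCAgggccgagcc
Plaur: cccctggagcTGACTCActctttagca
Serpinb2: agtaaaatgtTGAATCAtacaaagaat

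The whole window of *Plaur*, the member with the highest level per length in 4T1 and with both motifs before its start, is GRCm39 chr7:24161625-24161874 (plus strand), with AGGAAG and then TGANTCA in capitals.
Plaur: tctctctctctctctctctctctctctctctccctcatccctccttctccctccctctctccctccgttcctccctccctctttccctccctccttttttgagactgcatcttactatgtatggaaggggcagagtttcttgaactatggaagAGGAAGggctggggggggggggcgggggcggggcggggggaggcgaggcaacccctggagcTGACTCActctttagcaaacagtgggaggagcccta
The window opens with a run of CT repeats and holds 59.2% G and C.

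The RNAs of transcription factors known in general to act on *PLAU* or *PLAUR* were set beside the members. Of 17 such genes, 9 fell and 3 rose in MDA-MB-231, and 12 fell and 0 rose in 4T1. Over all genes tested, 26.8% were called lower and 27.2% higher in the human line, and 29.4% and 29.5% in the mouse line. The median of the listed genes' log2 fold changes was -0.26 in the human and -0.66 in the mouse line, beside 0.02 and -0.00 over all genes tested. Among the 7 AP-1 genes, 2 fell and 2 rose in MDA-MB-231, and 5 fell in 4T1. *FOS* rose in MDA-MB-231 by 2.38 on the log2 scale (adjusted p = 1.35e-07, edgeR's quasi-likelihood test), from 5.86 ± 0.925 to 30.4 ± 3.21 CPM, while *FOSL1*, another partner of JUN, fell from 857 ± 77.5 to 130 ± 9.55 CPM. In 4T1, *Fosl1* fell from 684 ± 47.9 to 222 ± 11.9 CPM, and the log2 fold changes of *Jun* and *Fosb* were -3.16 and -1.85. Of the 5 ETS genes, 4 fell and 1 rose in MDA-MB-231, and 3 fell in 4T1. *ETV4* and *ETV5*, members of the PEA3 subfamily, had log2 fold changes of -3.62 and -2.91 in MDA-MB-231, and *Etv4* of -1.46 in 4T1. *EGR1*, an immediate early gene, fell in both lines, with log2 fold changes of -1.74 and -1.20. The NF-κB gene *NFKB1* was called lower in MDA-MB-231 and not in 4T1, and *RELA* was called lower in both. Whether these RNAs bear on the members was not tested.

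**Figure D4:**
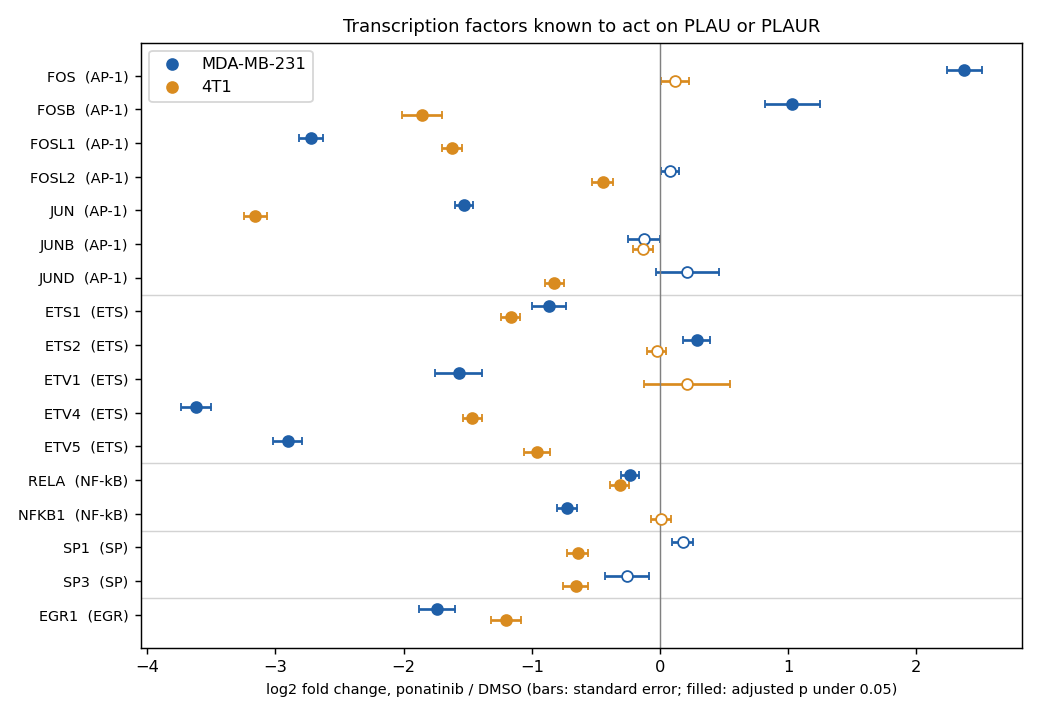
Log2 fold change with ponatinib against DMSO (x axis) of 17 transcription factor genes, grouped by family, in MDA-MB-231 (blue) and 4T1 (orange), with the standard error from edgeR as bars. Filled points have an adjusted p under 0.05. *FOSL1*, *JUN*, *ETS1*, *ETV4*, *ETV5*, *RELA* and *EGR1* are filled and left of 0 in both lines, and *FOS* is far to the right in MDA-MB-231 alone.

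The other genes of the plasminogen system, 33 by general knowledge, were counted by role. In MDA-MB-231, 24 of them could be tested, of which 3 fell and 12 rose, against 26.8% lower and 27.2% higher among all genes tested, with a median log2 fold change of 0.28 (0.02 over all genes). With the replicate number as a block, 5 fell and 14 rose, and 5 or 1 fell without ponatinib replicate 1 or 2. In 4T1, 21 of the 32 genes analysed could be tested, of which 10 fell and 7 rose, against 29.4% and 29.5%, with a median of -0.04 (-0.00 over all genes). The substrate gene itself, *PLG*, had 0 counts in every library of both lines; plasminogen is made mainly by the liver and reaches other tissues with plasma.

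Plasminogen is held at the surface by several proteins, among them annexin A2 with its partner S100A10, enolase and the receptor PLGRKT. In 4T1 the genes of the first 3 fell, *Anxa2* by 0.71 on the log2 scale (from 2789 ± 174 to 1706 ± 154 CPM) and *S100a10* by 0.46, while *Plgrkt* rose by 1.34 (from 22.5 ± 2.80 to 57.2 ± 4.87 CPM; adjusted p = 8.52e-08). The call of *Eno1* (log2 fold change -0.27, adjusted p = 0.0201, edgeR's quasi-likelihood test) was lost without DMSO replicate 3 (adjusted p = 0.0795), without ponatinib replicate 2 (0.0911) and with total counts (0.148). In MDA-MB-231, *ANXA2* fell, with a log2 fold change of -0.25 (adjusted p = 0.0147), and this call was lost without ponatinib replicate 2 (adjusted p = 0.0587). *S100A10* (0.20, adjusted p = 0.136), *ENO1* (-0.24, 0.0532) and *PLGRKT* (-0.31, 0.0845) did not pass, and all 3 passed with the replicate number as a block (adjusted p = 0.000129, 8.47e-07 and 0.0145).

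Of 6 listed genes for proteases that activate pro-urokinase, 5 could be tested in the human line, of which 3 rose and 0 fell. The mouse line had 3 that could be tested, of which 2 fell and 0 rose. The share of all genes tested that was called higher was 27.2% for the human line and 29.5% for the mouse line. Of 7 other inhibitors, 4 could be tested in the human line and 2 in the mouse line, and each of these rose. They included *SPINT2*, a membrane-bound Kunitz inhibitor of proteases that activate pro-urokinase, at 257 ± 18.5 and 322 ± 21.0 CPM in MDA-MB-231 (log2 fold change 0.32, adjusted p = 0.00550, edgeR's quasi-likelihood test). *Spint2* in 4T1 rose from 184 ± 4.82 to 319 ± 15.2 CPM (log2 fold change 0.79, adjusted p = 3.45e-07). The others, *SERPINF2*, which encodes the plasmin inhibitor, *SERPINI1* and *SPINT1*, were below 10 CPM.

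Among the endocytic receptors that clear complexes of activator and serpin, *LRP1* rose in both lines. It was at 31.3 ± 2.79 CPM with DMSO and 104 ± 5.86 with ponatinib in MDA-MB-231 (log2 fold change 1.73, adjusted p = 5.88e-08, edgeR's quasi-likelihood test). In 4T1 *Lrp1* was at 202 ± 29.1 and 561 ± 126 CPM (log2 fold change 1.47, adjusted p = 4.58e-07). *VLDLR*, a related receptor, rose in MDA-MB-231 (0.50, adjusted p = 0.00347), while *Vldlr* had a log2 fold change of -0.04 in 4T1 (adjusted p = 0.665).

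Genes of partners of the urokinase receptor moved in both directions. In MDA-MB-231, *MRC2*, which encodes a collagen receptor that associates with it, rose by 0.74 on the log2 scale, and *CAV1*, the gene of caveolin-1, by 0.60, while *ITGA5*, a subunit of a fibronectin receptor, had a log2 fold change of -0.62. *ITGAV* (0.53, adjusted p = 0.0108, edgeR's quasi-likelihood test) lost its call without ponatinib replicate 2 (adjusted p = 0.0643), and *ITGB1* (-0.43, adjusted p = 0.0298) without DMSO replicate 2, DMSO replicate 3 or ponatinib replicate 2 (0.107, 0.0971 and 0.0538) and with total counts (0.115). In 4T1, *Itgb5* rose by 1.18, and *Itga3*, *Cav1* and *Itgav* fell, with log2 fold changes of -1.39, -1.12 and -0.71.

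**Figure D5:**
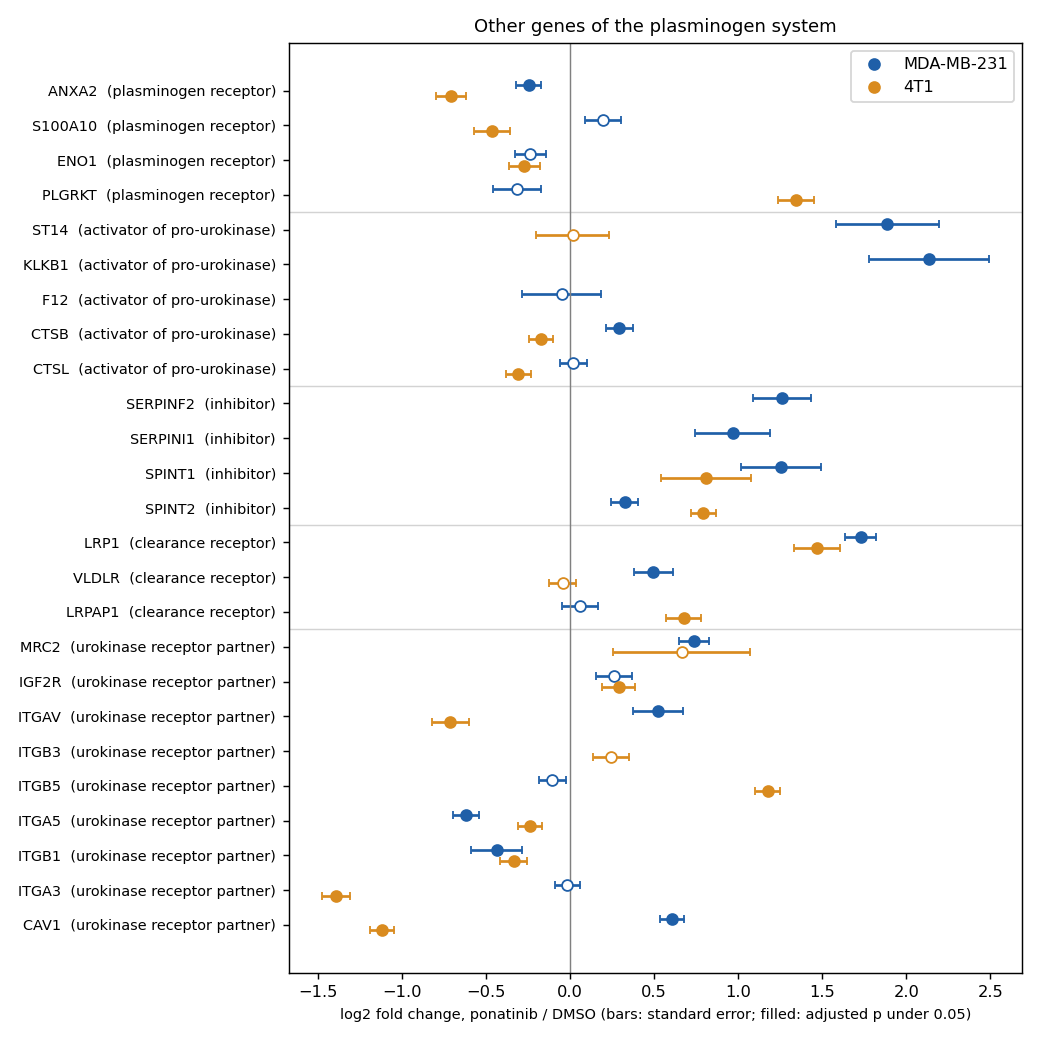
Log2 fold change with ponatinib against DMSO (x axis) of the other plasminogen system genes that could be tested, grouped by role, in MDA-MB-231 (blue) and 4T1 (orange), with the standard error from edgeR as bars. Filled points have an adjusted p under 0.05. All tested inhibitors and *LRP1* lie right of 0 and are filled, while *CAV1* and *ITGAV* lie on opposite sides of 0 in the 2 lines.

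The genes whose levels ran most like those of each member were found by Pearson's r of log2 CPM, centred within each line, over the 12 libraries and 7124 genes with at least 10 CPM on average in each line. The points share their libraries and their division into DMSO and ponatinib, so r is given as a description. For *PLAUR* the closest were *ETV4* (r = 0.997), *CDKN1A* (0.997) and *GRPEL1* (0.996). For *PLAT* they were *DNMBP*, *CTPS1* and *LRRC8C* (0.994 each), and for *PLAU*, which varied little, *RNF149* (0.962), *GOLGA3* (0.940) and *XPO4* (0.934). *SERPINE2* ran most like *GPRC5A* (0.981), *UBE2Z* (0.976) and *BLCAP* (0.974), where the low counts of *Serpine2* weigh on r.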

How the data were processed

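RNA-seq of MDA-MB-231 and 4T1 cells was used, with 3 libraries per group by the labels. Per the labels and the study's methods, the authors aligned cleaned reads with HISAT2 to hg38 or to GRCm39, and HTSeq counted them by gene. What they deposited are raw counts by gene, not normalized. Tool versions, annotation and strand setting are not given in the sources used here.

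Counts were tested for each line apart with edgeR 4.0.16 under R 4.3.3, by its quasi-likelihood test after filterByExpr and TMM, at a threshold of 0.05 on Benjamini-Hochberg adjusted p values, and the difference between lines as an interaction. CPM and RPKM were computed here, with exon lengths from GENCODE v44 and vM39, which matched 81.9% of 63677 human and 91.1% of 47729 mouse identifiers. The members and lists were chosen with earlier results of these data known, and support nothing on their own. Named genes were the members and, per line, up to 8 plasminogen system genes and up to 5 transcription factors with the largest changes among called genes whose higher group reached 10 CPM, the plasminogen gene, its 4 receptors and 2 clearance receptors, and the 3 genes most like each member. *SERPINF2*, *SERPINI1*, *SPINT1*, *NFKB1* and *RELA* were named after their values were seen, as were the genes named only in captions.

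edgeR's common coefficient of biological variation was 0.0990 (MDA-MB-231) and 0.0869 (4T1). Replicates differed by a chi-square per gene of 2.93 to 16.5, so none was a copy. Deviations from the group mean of same-numbered DMSO and ponatinib libraries correlated at 0.345, 0.111 and 0.133 in MDA-MB-231 and at 0.213, 0.119 and 0.115 in 4T1, each above 0.1. Libraries of different numbers correlated at -0.260 to 0.163 and at -0.213 to 0.119, so some of these reached the values of same-numbered ones. The labels do not say what a number marks, and the main tests did not pair libraries. On these values alone, same-numbered libraries were treated as pairs only in the replicate block, an alternative. In simulated counts with 2-fold changes, edgeR recovered 81.8% of 198 changed genes for MDA-MB-231 (14350 tested, 14 false calls), 86.2% of 196 for 4T1 (13119 tested, 9 false calls) and 66.7% of 198 for the difference between lines (12387 tested, 3 false calls).

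Alternatives were DESeq2 1.42.0, its size factors in edgeR, total counts, 10 counts or more in every library, no filter on counts, the replicate block, each replicate left out, an unadjusted p under 0.05 with a fold change of at least 1.5, and the longest transcript as length. The results of 1 marker gene are not reported here.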

Additional observations from a re-analysis of the deposited data

Results flagged for a closer look

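The response to ponatinib differed between the lines for 3 members and 10 of the other plasminogen system genes named here. The test was edgeR's quasi-likelihood test of the line-by-treatment interaction over 12488 same-symbol genes (41.9% called). Many of the other genes were named for large changes within a line, so their count cannot be read against that share. Some listed genes that are not named here differed too. Differences are log2 fold change in 4T1 minus that in MDA-MB-231. They were 1.56 for *PLAUR* and 1.40 for *PLAT*, both of which fell less in 4T1, and -5.30 for *SERPINE2*, which fell in 4T1. Among genes for surface binding of plasminogen they were -0.54 for *ANXA2*, -0.73 for *S100A10* and 1.58 for *PLGRKT*. For the inhibitor *SPINT2* the difference was 0.40 and for the clearance receptor *VLDLR* -0.61. Among partners of the urokinase receptor they were -1.31 for *ITGAV*, -1.45 for *ITGA3*, -1.79 for *CAV1*, 1.21 for *ITGB5* and 0.31 for *ITGA5*. With the replicate number as a block, *LRP1* (-0.34, adjusted p = 0.00350) and *PLAU* (-0.25, adjusted p = 0.0310) differed too; without it their adjusted p values were 0.156 and 0.0763. *ITGAV* and *CAV1* were called higher in MDA-MB-231 and lower in 4T1. The 2 lines differ in species, annotation and cell of origin, and these cannot be told apart from each other.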

How the results depend on the processing

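*PLAUR*, *PLAT* and *SERPINB2* in MDA-MB-231 and *Plaur* and *Serpine2* in 4T1 kept their direction and call under every alternative that gave a value, and *Plat* did so except where a 1.5-fold change was asked for. Asking for 10 counts or more in every library removed *SERPINB2* and *Serpine2*. Both had passed the usual filter only through their DMSO libraries, so their direction could only be lower and its keeping tests nothing. With each replicate left out in turn, the log2 fold change ranged from -2.49 to -2.40 for *PLAUR*, -1.88 to -1.77 for *PLAT*, -4.78 to -3.17 for *SERPINB2*, -0.86 to -0.77 for *Plaur* and -6.30 to -4.51 for *Serpine2*. With calls by unadjusted p (0.05) plus a 1.5-fold change, the number of members called lower in 4T1 was 2, and listed plasminogen system genes called lower were 1 in the human and 4 in the mouse line. The members called higher in MDA-MB-231 were 1 with total counts and 1 with the replicate block. The plasminogen system genes called lower in MDA-MB-231 were 5 without a filter, 5 with the replicate block, and 1 to 5 with a replicate left out. Transcription factor genes called higher in MDA-MB-231 were 5 with total counts. The replicate block, which pairs libraries of the same number, changed no call of a member within a line beside those of *PLAU* and *SERPINE2* in MDA-MB-231. *PLAU* in MDA-MB-231 ranged from -0.17 to -0.04, the last with total counts. The longest transcript as length kept 8 of the 10 pairs of members in order in MDA-MB-231 with DMSO and 9 in each group of 4T1. *Vldlr*, not called in 4T1, turned from -0.04 to 0.074 with total counts and, with a replicate left out, ranged from -0.13 to 0.0049, the last without ponatinib replicate 2. Total counts shifted the median over all genes tested to 0.11 (MDA-MB-231) and 0.12 (4T1) on the log2 scale, and the genes called lower and higher from 3918 and 3975 to 3097 and 4641 and from 3909 and 3925 to 2935 and 4854. The cause of these changes was not tested. Depth limits *SERPINB2*, *Serpine2* and *Serpinb2*, whose ratios rest on few counts.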
